A study of Mus musculus with 12 samples.

Results

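Hcn2, Hcn3 and Hcn4, which encode pore-forming subunits of the HCN channels, and Pex5l, which encodes their brain auxiliary subunit Trip8b, were described in ribosome-bound mRNA of hippocampal CA1 pyramidal neurons. The 4 genes were chosen by name from the 24079 genes of the deposited count table. Their values were not used in the choice, but earlier results of these data were known. All 4 were among the 17823 genes that could be tested. None of them passed the adjusted threshold between genotypes, and the widest separation in expression was between the genes themselves, from Pex5l as the most abundant to the scarce Hcn4.

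The libraries came from 6 pools of wild-type mice and 6 pools of Fmr1-/y littermates, the mouse model of fragile X syndrome, in which the RNA-binding protein FMRP is missing from every cell. Each pool held hippocampi of 4 to 6 male C57BL/6J mice aged 2 to 6 months. Mice of both genotypes carried the Wfs1-CreERT2 driver and the RiboTag allele, so that tamoxifen given on 3 days switched on the HA-tagged ribosomal protein Rpl22 in cells using the Wfs1 promoter, and HA-tagged ribosomes were precipitated from tissue taken 1 week later. The comparison asked which mRNAs differ in amount on tagged ribosomes of CA1 pyramidal cells without FMRP. No input RNA is among the libraries, so a change in mRNA amount and a change in ribosome loading cannot be told apart. RNA of untagged cells can be carried through the precipitation, and in such pooled material fewer cells of a type and less RNA per cell cannot be told apart.

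HCN channels open when the membrane hyperpolarizes and pass the mixed sodium and potassium current called Ih, which sets the resting potential, dampens dendritic input and shapes rhythmic firing. Cyclic AMP binds to their intracellular end and, most strongly in Hcn2 and Hcn4, shifts their opening towards less negative voltages. Trip8b binds the same intracellular end, governs how many channels reach the surface and the distal apical dendrite of CA1 cells, and opposes the effect of cyclic AMP, with splice forms that differ in how they act on surface traffic.

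Because the HCN genes share coding sequence, the stretches where they resemble each other most are shown first, as they decide whether a 50-base read can be given to 1 gene. Capitals mark the bases that differ within each pair, all sequences are coding strand, 5′ to 3′, on GRCm38, and all lie in coding exons. Hcn2 (chr10:79728996-79729045, plus strand) and Hcn4 (chr9:58855628-58855677, plus strand) were closest in a stretch that lies within 1 exon of each gene.
Hcn2: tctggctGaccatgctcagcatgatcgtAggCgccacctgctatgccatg
Hcn4: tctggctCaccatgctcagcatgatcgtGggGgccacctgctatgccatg
Hcn3 (minus strand, between bases 89150467 and 89150876 of chromosome 3) and Hcn4 (plus strand, between bases 58855729 and 58857751 of chromosome 9) were closest in a stretch that crosses a splice junction in both genes.
Hcn3: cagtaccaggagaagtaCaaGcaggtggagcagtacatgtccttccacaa
Hcn4: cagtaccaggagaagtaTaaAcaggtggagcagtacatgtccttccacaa
Hcn2 (plus strand, between bases 79717173 and 79724390 of chromosome 10) and Hcn3 (minus strand, between bases 89153058 and 89159831 of chromosome 3) were closest in another stretch across a splice junction.
Hcn2: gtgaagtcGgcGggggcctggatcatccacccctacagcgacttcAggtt
Hcn3: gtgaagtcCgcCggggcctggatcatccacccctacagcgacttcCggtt

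The closest 50-base windows thus differed at 3 bases between Hcn2 and Hcn4, at 2 between Hcn3 and Hcn4, and at 3 between Hcn2 and Hcn3. The longest run identical between 2 of the genes was 33 bases, shared by Hcn2 and Hcn3. No 50-base window of the longest transcript of any of the 4 genes matched the transcript of a gene elsewhere exactly. With up to 3 mismatches, the number the authors allowed when aligning, 11 of 3146 windows of Hcn2, 20 of 3953 of Hcn3 and 27 of 6069 of Hcn4 matched another HCN gene, and 0 of 4157 windows of Pex5l matched any gene elsewhere. The share of positions open to a mix-up was therefore at most 0.506%, in Hcn3.

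On GRCm38, Hcn2 (Entrez 15166) lies on the plus strand of chromosome 10 from 79716634 to 79736108, and Hcn4 (Entrez 330953) on the plus strand of chromosome 9 from 58822949 to 58863175. Hcn3 (Entrez 15168) lies on the minus strand of chromosome 3 from 89146775 to 89160284, and its last bases overlap the end of Pklr on the opposite strand. Pex5l (Entrez 58869) lies on the minus strand of chromosome 3 from 32947926 to 33143302 and has 12 annotated transcripts, 9 of them coding. The longest transcript had 8 exons in each HCN gene and 15 exons in Pex5l. Reads were counted by strand, which separates Pex5l from the antisense genes Gm37459 and 4930419G24Rik, but not from the short annotations Gm37443 and Gm19445 inside it on the same strand. Counts were made per gene, so the splice forms of Trip8b are not resolved.

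Between 39400980 and 55745464 reads per wild-type library and between 43106629 and 65565479 per Fmr1-/y library were counted on genes. As the labels state, Fmr1 reads numbered 1971 to 2608 per wild-type library and were absent from the knockout libraries apart from a single read in library 2. The CA1 markers were present in every library, and their levels in CPM (counts scaled to a common library size with edgeR's TMM factors) summed to 7365 to 9043 CPM in wild-type libraries and to 7101 to 8418 CPM without FMRP. Markers of choroid plexus were also abundant, at 6374 to 11856 CPM and 8299 to 17487 CPM. Those of oligodendrocytes summed to 1085 to 1629 CPM and 978 to 1491 CPM. Those of astrocytes summed to 726 to 889 CPM and 804 to 1246 CPM. Camk2a (mean 6016 CPM) made up most of the CA1 sum, and Ttr (mean 9821 CPM) most of the choroid plexus sum. Of the 6 CA1 markers, 6 had a fold change below 0. Of these 1 had an unadjusted p under 0.05 in edgeR, Wfs1 (log2 fold change -0.27), whose promoter drives the Cre used for tagging. All 6 astrocyte, 5 choroid plexus and 6 endothelial markers had a fold change above 0, with 3, 3 and 2 under that p. Below 0 were 5 of 6 oligodendrocyte, 4 of 5 dentate granule, 5 of 9 interneuron and 3 of 6 CA2 and CA3 markers. Above 0 were 4 of 4 oligodendrocyte precursor, 4 of 5 microglial and 4 of 5 thalamus and habenula markers. No marker of any list passed the adjusted threshold. Genotypes were compared with the quasi-likelihood test of edgeR. After Benjamini-Hochberg adjustment, 4 of the 17823 genes (0.0224%) had an adjusted p under 0.05, all of them lower in Fmr1-/y, and 1418 (7.96%) had an unadjusted p under 0.05, of which 654 (3.67%) were lower and 764 (4.29%) higher.

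Expressed per kilobase of the longest annotated transcript, which allows genes to be compared within a library, the mRNAs fell into a fixed order. Pex5l stood at 84.0 ± 10.1 CPM per kb in wild-type libraries and at 80.2 ± 10.6 in Fmr1-/y libraries (SD, n = 6 each), which placed its mean over all libraries at rank 704 of 16612 genes with a known length. Hcn2, a cyclic AMP-sensitive subunit found throughout the brain, stood at 19.6 ± 0.897 and 17.3 ± 2.14 CPM per kb, at rank 3556. Hcn3, which responds little to cyclic AMP, stood at 1.39 ± 0.295 and 1.43 ± 0.176 CPM per kb, at rank 11311, and Hcn4, the main subunit of the cardiac pacemaker, at 0.118 ± 0.0205 and 0.0792 ± 0.0477 CPM per kb, at rank 14898.

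The order Pex5l, Hcn2, Hcn3, Hcn4 held in 12 of 12 libraries, and the ranges of neighbouring genes did not touch. The geometric mean of the ratio of levels was 4.45 for Pex5l over Hcn2 (range over libraries 3.40 to 5.81), 13.2 for Hcn2 over Hcn3 (11.3 to 20.7) and 15.4 for Hcn3 over Hcn4 (8.28 to 43.7). For each of the 3 neighbouring pairs a two-sided exact sign-flip permutation test over the 12 libraries gave p = 0.000488, also after Benjamini-Hochberg adjustment over the 3, which is the smallest value the test allows. The order was taken from the means of the same libraries, so this p only restates that all 12 agree. It does not measure the error in transcript length. The length assigned to a gene moves these ratios. With the mean length of all annotated transcripts, or with the other alternatives tried, the log2 ratios ranged from 2.1 to 2.7, from 2.34 to 3.84 and from 3.54 to 5.35 in the same order.

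**Figure D1:**
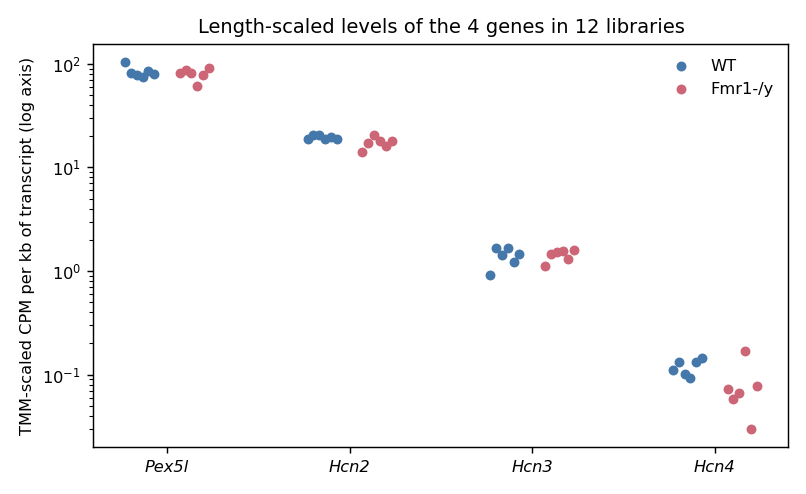
Level of each gene in each library, in TMM-scaled CPM per kb of the longest transcript on a log axis, with wild-type libraries in blue and Fmr1-/y libraries in red. Each gene lies apart from its neighbours, with geometric mean ratios of 4.45, 13.2 and 15.4 from left to right, and within each gene the genotypes overlap.

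Among the 3 HCN genes described, Hcn2 made up most of the mRNA per kilobase. Taken per kilobase of the longest transcript, its share was between 91.5% and 94.9% in wild-type libraries (median 92.5%) and between 91.1% and 92.9% in Fmr1-/y libraries (median 92.0%). Hcn3 held a median of 6.87% and 7.73%, and Hcn4 a median of 0.572% and 0.352%. Taken per kilobase of the mean annotated transcript, which is much shorter in Hcn3, the median share was 83.4% and 81.9% for Hcn2 and 16.1% and 17.9% for Hcn3, and Hcn2 exceeded Hcn3 by a median of 5.21 and 4.59 times. The level of Pex5l per unit of Hcn2 was 3.8 to 5.51 in wild-type libraries (median 4.14) and 3.40 to 5.81 in Fmr1-/y libraries (median 4.96), so that the range of Fmr1-/y libraries spanned that of wild-type. With the mean transcript length its medians were 6.05 and 7.24.

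Between genotypes, Hcn2 gave the lowest p of the 4 genes. In wild-type libraries its lowest, median and highest level was 59.6, 61.8 and 66.1 CPM, against 45.2, 55.9 and 65.5 CPM in the libraries without FMRP. The wild-type libraries lay close together, 5 of the 6 Fmr1-/y libraries lay below all of them, and Fmr1-/y library 3 lay within their range. The wild-type mean was 62.5 ± 2.87 CPM and the Fmr1-/y mean 55.2 ± 6.83 CPM (SD, n = 6 each), or 88.3% of wild-type. The log2 fold change was -0.18 (SE 0.08, 95% interval -0.34 to -0.02). In edgeR's quasi-likelihood test this gave an unadjusted p of 0.0330, as did 7.96% of all genes at the 0.05 level, and a Benjamini-Hochberg adjusted p of 0.573. Hcn2 therefore did not pass the threshold.

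How far Hcn2 was from it changed with single libraries of either genotype. Without Fmr1-/y library 1, which had the lowest Hcn2, the log2 fold change was -0.13 with an unadjusted p of 0.0852 and an adjusted p of 0.853 in edgeR. Without Fmr1-/y library 3, which had the highest, it was -0.23 with an unadjusted p of 0.00481 and an adjusted p of 0.285. Leaving out Fmr1-/y library 2 or 5, or wild-type library 2, 3 or 5, gave an unadjusted p of 0.0505 to 0.0689 in edgeR. Fmr1-/y library 1 also held the highest summed choroid plexus (17487 CPM) and astrocyte (1246 CPM) markers of all 12 libraries. Next in choroid plexus markers came Fmr1-/y library 4 (13838 CPM), with 56.9 CPM of Hcn2, and wild-type library 3 (11856 CPM), with 65.5 CPM. Wild-type library 2, with the lowest choroid plexus sum (6374 CPM), had 66.1 CPM of Hcn2. Oligodendrocyte markers summed to 1208 CPM in Fmr1-/y library 1 and to 1491 CPM in Fmr1-/y library 3, the one with the most Hcn2. Their lowest sum of all libraries was in Fmr1-/y library 5 (978 CPM), with 51.0 CPM of Hcn2. The highest was in wild-type library 4 (1629 CPM), with 60.7 CPM. The Hcn2 transcript is rich in G and C (65.4%), and an offset for GC content and length, added after the data were seen, brought the log2 fold change to -0.12 (edgeR adjusted p = 0.705). The part of these features in the Hcn2 values was not tested.

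Pex5l, the most abundant of the 4 genes, gave 12217 to 23394 reads per library. Its lowest, median and highest level was 315 and 342.1 and 435 CPM in wild-type libraries, and 255 and 345.1 and 381 CPM in Fmr1-/y libraries. The genotypes overlapped over most of their range, and each held 1 library apart from the rest, wild-type library 1 at the top and Fmr1-/y library 4 at the bottom. The means were 353 ± 42.5 and 337 ± 44.5 CPM (SD, n = 6 each). The log2 fold change was -0.07 (SE 0.09, 95% interval -0.26 to 0.13, edgeR adjusted p = 0.931), and it became 0.00 when either of these 2 libraries was left out, with 0.00182 without wild-type library 1 and 0.00250 without Fmr1-/y library 4. In both genotypes the library with the most Pex5l also held the highest summed CA1 markers, 9043 CPM in wild-type library 1 and 8418 CPM in Fmr1-/y library 6. The library with the least Pex5l held the lowest, 7365 CPM in wild-type library 4 and 7101 CPM in Fmr1-/y library 4. Whether the 2 quantities depend on each other was not tested.

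Hcn3, at 191 to 343 reads per library, did not separate the genotypes. Its lowest, median and highest level was 3.63, 5.81 and 6.72 CPM in wild-type libraries, and 4.50, 5.97 and 6.33 CPM in Fmr1-/y libraries. All Fmr1-/y libraries lay inside the wild-type range, which was widened downward by wild-type library 1. The means were 5.58 ± 1.18 and 5.71 ± 0.705 CPM (SD, n = 6 each), with a log2 fold change of 0.04 (SE 0.15, 95% interval -0.28 to 0.35, edgeR adjusted p = 0.981). Its sign turned when wild-type library 1 was left out (-0.06).

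Hcn4 had the largest log2 fold change of the 4 genes and the fewest reads, 12 to 50 per library. Its lowest, median and highest level was 0.567, 0.740 and 0.874 CPM in wild-type libraries, and 0.184, 0.424 and 1.04 CPM in Fmr1-/y libraries. Of the Fmr1-/y libraries, 5 lay below every wild-type library, the highest of them at 0.474 CPM, and Fmr1-/y library 4 lay above every wild-type library. The means were 0.725 ± 0.125 and 0.484 ± 0.292 CPM (SD, n = 6 each), with a log2 fold change of -0.59 (SE 0.37, 95% interval -1.36 to 0.19, edgeR unadjusted p = 0.128, adjusted p = 0.756). On the linear scale that interval runs from 39% to 113.8% of the wild-type level.

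Counting error alone gives a coefficient of variation of 17.7% at the mean number of Hcn4 reads in wild-type libraries, where 17.3% was measured, and of 20.4% in Fmr1-/y libraries, where 60.3% was measured. The measured values also hold the spread between pools of mice. Without Fmr1-/y library 4 the log2 fold change was -0.96 (SE 0.35) with an unadjusted p of 0.0130 and an adjusted p of 0.434 in edgeR. Fmr1-/y library 4 was also the one with the least Pex5l and the lowest summed CA1 markers (7101 CPM), and its choroid plexus markers summed to 13838 CPM, the second highest value. The part of this in its Hcn4 value was not tested.

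**Figure D2:**
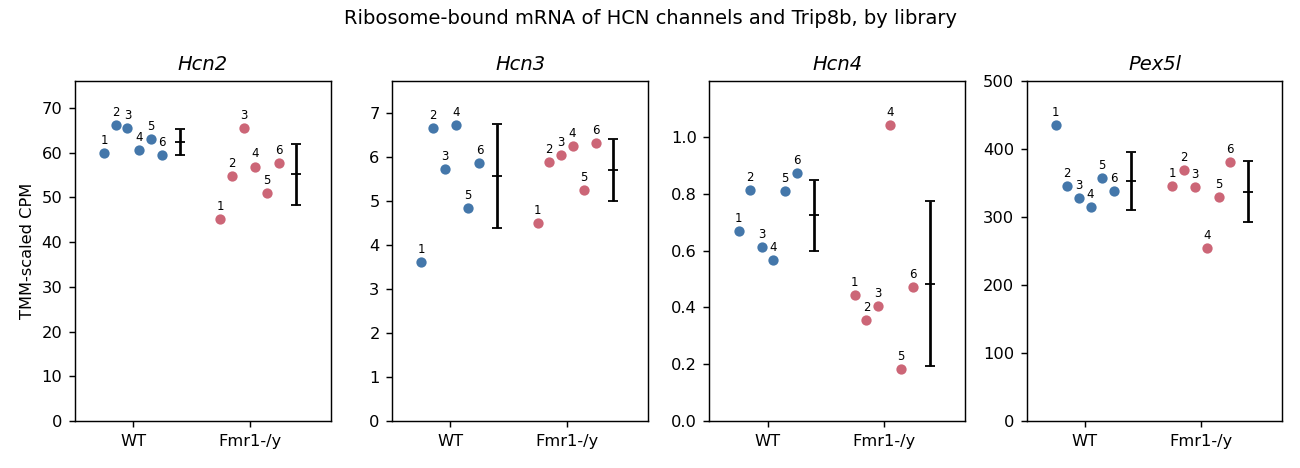
TMM-scaled CPM of each gene in every library, numbered by replicate, with wild-type in blue and Fmr1-/y in red. Black bars give the mean and SD of 6 libraries. Hcn2 is lower than every wild-type library in 5 of 6 Fmr1-/y libraries, Hcn4 likewise apart from library 4, and Hcn3 and Pex5l overlap widely.

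In none of the 4 genes were the 6 Fmr1-/y libraries all below or all above the 6 wild-type libraries. Such a separation was found in 0.623% of all genes tested, with Fmr1-/y below in 0.41% and above in 0.213%. The sign of the difference was the same in 20 of 20 alternative settings for Hcn2 and Hcn4, and in 18 of 20 for Hcn3 and Pex5l. None of the 4 passed an adjusted p of 0.05 in any of them.

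**Figure D3:**
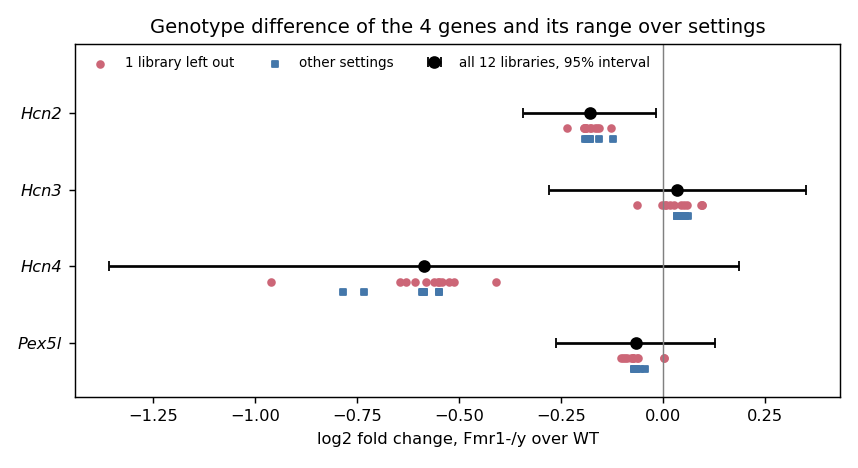
Log2 fold change of each gene in Fmr1-/y over wild-type. Black points with bars give the edgeR estimate with all 12 libraries and its 95% interval, red points the value with 1 library left out, and blue squares the other settings. Hcn2 and Hcn4 stay below 0 throughout, with Hcn4 ranging from -0.96 to -0.41, and Hcn3 and Pex5l lie on both sides of 0.

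The deviations of the 4 genes from their genotype means were also compared over the 12 libraries on the log2 CPM scale, as a description. The Pearson correlation was 0.51 between Hcn2 and Hcn3, 0.21 between Hcn2 and Hcn4, 0.18 between Hcn3 and Hcn4, -0.55 between Hcn3 and Pex5l, -0.43 between Hcn4 and Pex5l and -0.09 between Hcn2 and Pex5l. These points share library depth and RNA composition, and Hcn4 adds counting error. Single libraries weigh on the negative values. Fmr1-/y library 4 held both the highest Hcn4 (1.04 CPM) and the lowest Pex5l (255 CPM) of the 12 libraries. Wild-type library 1 held both the lowest Hcn3 (3.63 CPM) and the highest Pex5l (435 CPM). The correlations were not computed without these libraries, so the sign of these values is not established. With 12 libraries, the value of -0.09 between Hcn2 and Pex5l does not settle whether their levels are related. Among 13767 genes with a mean of at least 1 CPM, the 3 whose deviations were most like those of Hcn2 were Dusp8 (0.97), Them6 (0.97) and Zmiz2 (0.96). For Hcn3 they were Gm13629 (0.91), Serac1 (0.89) and Kcns3 (0.89). For Pex5l they were Kcnab1 (0.97), which encodes an auxiliary subunit of potassium channels, Map4 (0.97) and Syt12 (0.96).

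Proteins that bind or modify HCN channels showed no change past the adjusted threshold in any of the 13 genes listed, which all were tested. A fold change below 0 was found in 9 and above 0 in 4, with 2 lower and 1 higher at an unadjusted p under 0.05, where 3.67% of all genes were lower and 4.29% higher, and the median log2 fold change was -0.06 beside 0.00 for all genes. Apba2, which encodes the adaptor Mint2 that binds Hcn2, was the most abundant per kilobase and stood at 288 ± 8.28 CPM in wild-type libraries and 273 ± 15.6 CPM without FMRP (log2 fold change -0.08, SE 0.05). Lrmp, whose product lowers the response of Hcn4 to cyclic AMP, stood at 5.81 ± 0.760 and 4.30 ± 0.750 CPM (log2 fold change -0.44, SE 0.14, edgeR adjusted p = 0.378). Flna, the actin-crosslinking filamin A, stood at 32.2 ± 4.22 and 38.8 ± 8.99 CPM (log2 fold change 0.27, SE 0.13, edgeR adjusted p = 0.621), and its log2 fold change was 0.15 without Fmr1-/y library 5. Kcne2, chosen after its values were seen because it is both an HCN accessory subunit and strongly expressed in choroid plexus, stood at 30.9 ± 8.18 and 39.8 ± 11.8 CPM (log2 fold change 0.36, SE 0.18, edgeR adjusted p = 0.649).

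Pex5l takes its name from Pex5, the receptor that carries proteins into the peroxisome. Pex5 and 3 partners of the import machinery (Pex7, Pex13 and Pex14) were all tested, with 2 fold changes below and 2 above 0, none at an unadjusted p under 0.05, and a median log2 fold change of 0.02. Pex5 had 68.7 ± 2.69 CPM in wild-type libraries and 72.0 ± 4.08 CPM without FMRP (log2 fold change 0.07, SE 0.06).

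Cyclic AMP, the ligand of HCN channels, is made by adenylyl cyclases. None of these and none of the cyclic nucleotide phosphodiesterases passed the adjusted threshold. The list of phosphodiesterases was not limited to those specific for cyclic AMP. Of 10 adenylyl cyclases, 9 had a fold change below 0 (7 when counts were scaled by library totals alone) and none reached an unadjusted p of 0.05, with a median log2 fold change of -0.09. Adcy1, the calcium-stimulated cyclase and the most abundant of them per kilobase, stood at 1052 ± 164 and 952 ± 206 CPM (log2 fold change -0.14, SE 0.13). Of 16 cyclic nucleotide phosphodiesterases, 10 were below and 6 above 0 (median -0.06), with 3 lower and 0 higher at an unadjusted p under 0.05, beside 3.67% and 4.29% of all genes. Pde2a, the most abundant of them per kilobase, stood at 554 ± 36.9 and 531 ± 37.8 CPM (log2 fold change -0.06, SE 0.06). Pde8b, specific for cyclic AMP, stood at 53.2 ± 3.26 and 47.5 ± 3.0 CPM (log2 fold change -0.16, SE 0.06, edgeR adjusted p = 0.524).

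Among other channels with a cyclic nucleotide-binding domain or a domain homologous to it, as in the Kcnh genes, 12 of the 14 listed were tested. Cnga1 and Cngb3 had too few reads. The fold change was below 0 in 9 and above 0 in 3, with 1 lower at an unadjusted p under 0.05 (3.67% of all genes) and a median log2 fold change of -0.26. Only 5 of these genes reached a mean of 1 CPM. Kcnh3, the most abundant per kilobase, stood at 70.9 ± 8.55 and 68.2 ± 8.42 CPM (log2 fold change -0.06, SE 0.09). Kcnh5 stood at 2.69 ± 0.310 and 1.95 ± 0.367 CPM (log2 fold change -0.46, SE 0.17, edgeR adjusted p = 0.460).

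Other channels that pass current near the resting potential, and so act over the same voltages as Ih, gave the lowest p values of any list. This list was drawn up with earlier results of these data known. The study had already reported Kcnq3 and Cacna1g as lower in Fmr1-/y, so the counts for this list are not independent of that report. Of 17 genes (M-type, K2P leak and inward rectifier potassium channels and T-type calcium channels), 14 had a fold change below 0 and 3 above, with a median log2 fold change of -0.24. At an unadjusted p under 0.05 in edgeR, 6 were lower, where 3.67% of all genes were, and 0 were higher. None passed the adjusted threshold in edgeR. Kcnq3, an M-type channel subunit, had 13.0 ± 1.78 CPM in wild-type libraries and 9.07 ± 1.28 CPM without FMRP (log2 fold change -0.52, SE 0.11, edgeR adjusted p = 0.181). Kcnj9, a subunit of G protein-gated inward rectifiers and the most abundant per kilobase, stood at 148 ± 22 and 152 ± 22.6 CPM (log2 fold change 0.04, SE 0.11).

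The call on this list depended on the test. DESeq2's Wald test gave 3 of the 17 genes an adjusted p under 0.05, and it called 84 genes in all, where edgeR called 4. The 3 were Kcnq3 (adjusted p = 0.00503), Kcnk2 (adjusted p = 0.0102) and Cacna1g (adjusted p = 0.0236), of which the last 2 were chosen after their values were seen. The study also used DESeq2, and its published list of changed genes, longer than that of edgeR here, holds Kcnq3 and Cacna1g. Kcnk2, the K2P leak channel TREK-1, stood at 57.5 ± 5.44 and 46.4 ± 2.02 CPM (log2 fold change -0.31, SE 0.07, edgeR adjusted p = 0.181), with no overlap between genotypes. Cacna1g, the T-type calcium channel Cav3.1, stood at 30.6 ± 1.71 and 24.1 ± 2.85 CPM (log2 fold change -0.34, SE 0.08, edgeR adjusted p = 0.216). The CA1 markers summed to less than the wild-type median of 8488 CPM in all 6 Fmr1-/y libraries. The ranges overlapped, from 7365 to 9043 CPM in wild-type libraries and from 7101 to 8418 CPM in Fmr1-/y libraries. The part of the CA1 markers in these differences was not tested. By the same DESeq2 test Hcn2 had an adjusted p of 0.444.

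Rest, a repressor of neuronal genes including HCN channel genes, and 7 members of its complex had 5 fold changes below and 3 above 0, none at an unadjusted p under 0.05, and a median of -0.04. Hdac2, the most abundant per kilobase, stood at 137 ± 17.7 and 135 ± 15.2 CPM (log2 fold change -0.02, SE 0.09).

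**Figure D4:**
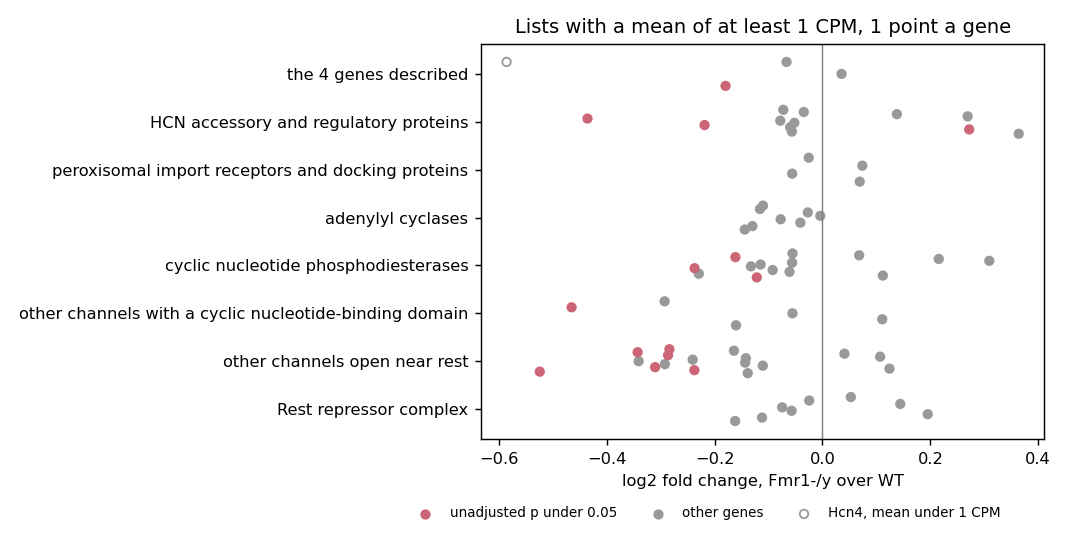
Log2 fold change in Fmr1-/y over wild-type of the 4 genes and of listed genes with a mean of at least 1 CPM, 1 point a gene, in red where edgeR's unadjusted p was under 0.05. Hcn4, with a mean under 1 CPM, is drawn as an open circle. The other channels open near rest hold 6 of the red points, all below 0.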

How the data were processed

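The authors sequenced 50-base stranded reads of HA-precipitated, polyadenylated RNA, aligned them with TopHat2 2.1.1 and Bowtie2 2.2.8 to mm10, counted them per gene with HTSeq 0.6.1p1 using the strand, and deposited raw read counts. Each count is thus the number of reads on a gene, without normalization. The methods place 4 libraries on a lane without naming them, so lane could not be a covariate. Genes with at least 15 reads in total were kept, as in the study, and genotypes were compared with edgeR 4.0.16 (TMM, quasi-likelihood test, R 4.3.3) with Benjamini-Hochberg adjustment over all 17823 genes at 0.05, in place of the study's DESeq2, which was run as an alternative (1.42.0), as was limma 3.58.1 voom. Standard errors were obtained as the absolute log2 fold change over the root of F. Expression levels are TMM-scaled CPM (prior count 2 on the log2 scale). Intervals of 95% come from the fit. The edgeR p-values set the genotype difference against a spread between libraries that holds both counting error and the spread between pools of mice.

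Transcript lengths, sequences and overlaps are from GENCODE M21 and gene positions from RefSeq on GRCm38, the same build as mm10. Windows of 50 bases were searched with bwa 0.7.19. Shared sequence was found by comparing longest transcripts.

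The 4 genes and all lists were chosen with earlier results of these data known. From each list the text names genes past the threshold, the lower and the higher gene with the smallest unadjusted p under 0.05, and the gene with the highest level per kb, and for each of the 4 genes with at least 1 CPM the 3 genes with the most similar deviations. Others are named as chosen later. The test code was tested on simulated counts. 1 further HCN gene is not analysed here.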

Additional observations from a re-analysis of the deposited data

Results flagged for a closer look

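Of 8 sets of 6 libraries checked (4 genes in each genotype), 2 held a library whose gap to the nearest other library, divided by the whole range, was above Dixon's critical value of 0.625. Chance gives about 1 such set in 20. For Hcn4 this was Fmr1-/y library 4, with a ratio of 0.6625 (1.04 CPM, the other 5 libraries between 0.184 and 0.474 CPM). For Pex5l it was wild-type library 1, with a ratio of 0.6473 (435 CPM, the other 5 between 315 and 358 CPM). The low Pex5l of Fmr1-/y library 4, at 255 CPM beside 330 to 381 CPM, gave a ratio of 0.597 and stayed below that value.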

How the results depend on the processing

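Of the 20 alternatives to the edgeR test of each of the 4 genes, 19 were planned and 1, the GC content and length offsets, was added after the data were seen. With 1 library left out, the log2 fold change ranged from -0.23 to -0.13 for Hcn2, from -0.06 to 0.10 for Hcn3, from -0.96 to -0.41 for Hcn4 and from -0.10 to 0.00250 for Pex5l. The sign turned for Hcn3 without wild-type library 1 (-0.0640) and library 5 (-0.00157), and for Pex5l without wild-type library 1 (0.00182) and Fmr1-/y library 4 (0.00250). It also turned for Hdac2 without Fmr1-/y library 3 (0.0114) or 4 (0.0130) or wild-type library 6 (0.0408), and for Kcnj9 without Fmr1-/y library 5 (-0.0391) or wild-type library 4 (-0.0364). Over all libraries left out in turn, Hdac2 ranged from -0.0711 to 0.0408, Kcnj9 from -0.0391 to 0.0832, Flna from 0.15 to 0.34 and Adcy1 from -0.23 to -0.08. An unadjusted p under 0.05 was reached in 12 of 20 alternatives for Hcn2 and in 2 of 20 for Hcn4. For Hcn4 these were edgeR without Fmr1-/y library 4 (adjusted p = 0.434) and limma voom (log2 fold change -0.78, adjusted p = 0.613). The adjusted p ranged from 0.285 to 0.853 for Hcn2 and from 0.434 to 0.940 for Hcn4.

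The number of genes past the threshold was 4, all lower in Fmr1-/y, and 2 to 6 with 1 library left out (lower 2 to 5, higher 0 to 1). It was 2 without Fmr1-/y library 1, 4, 5 or 6 and without wild-type library 4, 5 or 6. DESeq2 gave 84 (53 lower, 31 higher) and limma voom 4, with 1508 and 1406 genes at an unadjusted p under 0.05. A threshold of 0.01 gave 2, both lower, and one of 0.1 gave 6, of which 5 were lower and 1 higher. Of the channels open near rest, DESeq2 called 3. Scaling moved the median log2 fold change of all genes from 0.00419 to 0.0285 at most. Ranked by Spearman's rho, the 3 genes most like Hcn2, Hcn3 and Pex5l kept 0, 0 and 1 of their number.

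Replicate numbers are shared by the genotypes, and no source ties same-numbered pools together. Their deviations correlated at -0.08 to 0.09 over all genes and at -0.44 to 0.60 over genes with a mean log2 CPM over 5 (0.38, 0.44 and 0.60 for numbers 1, 3 and 4, and below 0 for the others), so that no consistent pairing was found. With the replicate number as a block, the log2 fold change was -0.19 for Hcn2 (edgeR adjusted p = 0.448), 0.05 for Hcn3, -0.73 for Hcn4 and -0.07 for Pex5l, and 4 genes passed. Counting error, at 12 to 50 reads per library, and the spread between pools both enter the interval of Hcn4.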
